A study of Homo sapiens with 9 samples.

Results

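The mitosis and spindle checkpoint genes are a list of 46 genes of the G2 to M transition, the kinetochore, the spindle and cytokinesis, picked by name and role out of 58214 genes. They were read in K562, a human erythroleukemia cell line from a patient with chronic myelogenous leukemia, which some label fields spell K652. The cells were transfected with a non-targeting siRNA pool (SCR, the control group), with an siRNA pool against the RNA helicase DHX34 or with siRNA against UPF1, the central helicase of nonsense-mediated decay (NMD), which clears RNAs that carry an early stop codon. Each group had 3 poly(A)-selected libraries, harvested 4 days after the first of a pair of lipid transfections with the same siRNA, and all came from 1 cell line. The study names the replicates as biological, and the p-values measure the spread between these 3 libraries per group. Between 73478797 and 103625443 counts per library were assigned to transcripts. In bulk RNA of this kind a smaller share of cells in mitosis and less RNA per mitotic cell cannot be told apart.

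All 46 genes passed the filter on low counts in every comparison. Levels are given in CPM, counts scaled to library size and corrected between libraries by the trimmed mean of M values (TMM), which compares 1 gene between libraries, or in TPM, the share of each transcript among all transcripts, which is corrected for length and compares genes with each other. A gene was called changed at an edgeR adjusted p of at most 0.005. The DHX34 mRNA was at 73.7 ± 1.11 CPM in SCR and 31.4 ± 2.32 in the DHX34 knockdown, and the UPF1 mRNA went from 261.7 ± 8.12 CPM in SCR to 106 ± 1.46 with UPF1 siRNA (SD, n = 3), so each targeted gene was low in the libraries labelled for it. The 16 erythroid and K562 markers were all above 1 TPM, summing to between 35018 and 36387 TPM in SCR, between 31560 and 33377 in the DHX34 knockdown and between 21584 and 22245 in the UPF1 knockdown. Markers of other lineages summed to far less than these, with fibroblast genes at no more than 2.38 TPM and lymphoid genes at no more than 35.9. The epithelial genes summed to at most 86.6 TPM, with only 2 of 10 at a mean of at least 1 TPM in each group. The megakaryocytic genes summed to at most 146 TPM.

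Entry into mitosis is driven by CDK1 bound to a cyclin, the kinetochore ties chromosomes to spindle microtubules, and the spindle checkpoint holds back the anaphase-promoting complex until every chromosome is attached. Once the checkpoint is satisfied, securin and cyclin B are destroyed, sister chromatids part and a contractile ring divides the cell. Most of these genes are transcribed late in the cell cycle from promoters that carry CCAAT boxes and a cell cycle homology region (CHR), read by the MuvB complex together with B-MYB and FOXM1.

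The CHR is shown here because most of these genes carry it. The promoters, 250 bases before to 50 bases after each RefSeq start site on GRCh38.p14, were searched on both strands for TTTGAA or TTCGAA as the CHR and for CCAAT. Of the 46 genes 38 were matched, with 48 promoters, and 64.6% of these held a CHR against 16.4% of all 35116 promoters. CCAAT was found in 75.0% of the member promoters against 34.6% of all, and both motifs together in 54.2% against 6.38%. The windows of 30 bases below belong to the 7 genes with the largest called fold changes among those with a motif before the start site, read on the gene's strand with the CHR in capitals. In CKS2 the motif lies on the opposite strand, so that it reads TTCAAA. The ANLN window also holds this form, left in lower case directly before the marked motif, with its first base at -26.
ANLN, chr7:36389830-36389859, plus strand, first motif base -20 from the start site: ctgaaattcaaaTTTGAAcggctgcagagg
MKI67, chr10:128126435-128126464, minus strand, first motif base -29 from the start site: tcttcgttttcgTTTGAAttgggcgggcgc
CKS2, chr9:89311154-89311183, plus strand, first motif base -29 from the start site: cgggctgtcggaTTCAAAtccggatcgttg
SPC25, chr2:168890416-168890445, minus strand, first motif base -3 from the start site: aagtgcactaggTTTGAAatcggaaagttg
CKS1B, chr1:154974639-154974668, plus strand, first motif base -30 from the start site: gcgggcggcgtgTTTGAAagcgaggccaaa
CDK1, chr10:60778453-60778482, plus strand, first motif base -13 from the start site: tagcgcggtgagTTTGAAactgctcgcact
CCNB2, chr15:59105105-59105134, plus strand, first motif base -29 from the start site: agcgacgcggtaTTTGAAtcctggaacaag
The fold changes of these 7 genes in the knockdowns are given below, and whether the motif had a part in them was not tested. Of the 28 matched genes with a CHR 2 rose and 4 fell in the DHX34 knockdown, and 2 rose and 11 fell in the UPF1 knockdown, counts that hold on TMM-scaled counts and not on every scale. Of the 10 without one in these windows, 2 fell with DHX34 siRNA and 5 in the UPF1 knockdown. Of all genes tested, 5.54% rose and 4.86% fell in the DHX34 knockdown, and 12.4% and 12.9% in the UPF1 knockdown.

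The genes spanned a wide range of levels. In SCR the most abundant was CKS1B at 308 ± 7.84 TPM, followed by CCNB1 at 245 ± 1.47, CKS2 at 230.1 ± 9.85, PTTG1 at 195 ± 5.87 and CDK1 at 182 ± 3.43 TPM (SD, n = 3). At the other end, MKI67 was at 8.97 ± 1.06 TPM and CENPE, the kinetochore motor, at 5.25 ± 0.521 TPM, both long transcripts. UBE2C, which encodes a ubiquitin-conjugating enzyme of the anaphase-promoting complex, was at 0.441 ± 0.104 TPM, below 0.8 TPM in every library, although its partners were well expressed. Why it was near zero was not tested, and it was called in no comparison.

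The DHX34 knockdown was compared with SCR to ask whether depletion of the helicase altered the mitotic program. Of the 46 genes 2 rose and 6 fell. MKI67, the Ki-67 proliferation marker, and HMMR, a spindle-binding protein, were higher, and ANLN, the anillin scaffold of the contractile ring, CKS2, SPC25, PTTG1, KIF20A and MAD2L1 were lower. The share that rose was 4.35% against 5.54% of the 17004 genes tested, and the share that fell was 13.0% against 4.86%. The median log2 fold change was -0.06 over the 46 genes and 0.02 over all genes tested. In 28 of the 46, or 60.9%, the 3 knockdown libraries lay entirely on one side of the 3 SCR libraries, as they did in 41.4% of all genes. Leaving out 1 library at a time gave between 3 and 8 calls, and ANLN, CKS2 and SPC25 were called each time. Of the 8 calls, 3 were kept without SCR replicate 3, 5 without SCR replicate 2, 6 without SCR replicate 1, 4 without DHX34 knockdown replicate 1, 5 without replicate 2 and 8 without replicate 3, and no lost call had an adjusted p above 0.0202. DESeq2 called the 8 and, lower, CCNB2, CDK1, CDCA8 and MYBL2. It also called more of all 17004 genes, 1436 higher and 1598 lower, where edgeR called 942 and 826.

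The UPF1 knockdown was compared with SCR to ask the same of the core NMD factor. Here 2 of the 46 genes rose, CKS1B and PRC1, and 20 fell, led by PTTG1, CKS2, CCNB1, TTK and CDK1, on TMM-scaled counts, while on uncentered TPM 13 of the 20 had small positive values and on TPM centered on the median ratio 4 genes were called higher and 4 lower. The share that rose was 4.35% against 12.4% of the 17184 genes tested, and the share that fell was 43.5% against 12.9%. The falls were small, between 0.12 for TPX2 and 0.49 for PTTG1 on the log2 scale, and the median over the 46 genes was -0.11 against 0.02 over all genes. The UPF1 libraries lay wholly below SCR in 25 genes and wholly above in 2, together 58.7% of the list against 50.6% of all genes. With 1 library left out, between 12 and 20 of the 46 were called. Of the 22 calls, 12 were kept without UPF1 knockdown replicate 3, 13 without replicate 1, 16 without replicate 2, 16 without SCR replicate 3, 17 without SCR replicate 2 and 19 without SCR replicate 1. The 12 genes called each time were CCNB1, CCNB2, CDK1, CKS1B, CKS2, NEK2, TTK, PTTG1, CDCA8, KIF2C, KIF20A and PRC1, and no lost call had an adjusted p above 0.0235.

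The sign of the smaller changes, and the number called, depended on the scale. On the scale of log2(TPM + 0.5) the median tested gene was itself higher by 0.13 in the DHX34 knockdown and by 0.17 in the UPF1 knockdown, so changes were read relative to that gene. Without this correction limma, at the same adjusted p, called 2 of the 46 genes higher and 1 lower in the DHX34 knockdown, and 9 higher and 1 lower in the UPF1 knockdown, so that the split between rises and falls turned over. Over all genes the same fits called 786 higher and 93 lower of 17004, and 3213 higher and 282 lower of 17184. Relative to the median gene all 20 that fell in the UPF1 knockdown lay below on TPM too, including the 13 with positive values. The 6 that fell in the DHX34 knockdown did so as well. Both sets were picked as low in the same libraries, so this is not independent support. Of all 46 genes, 31 lay below the median gene on TPM in the UPF1 knockdown and 29 in the DHX34 knockdown. The median of the 46 genes lay 0.13 below the median gene on counts and 0.04 below on TPM in the UPF1 knockdown, and 0.08 and 0.03 below in the DHX34 knockdown. After each library was centered on its median ratio to the gene means, limma on TPM called 0 higher and 1 lower in the DHX34 knockdown, the 1 being ANLN at -0.69, and 4 higher and 4 lower of the 46 in the UPF1 knockdown. Over all genes these fits called 214 higher and 188 lower of 17004, and 1234 higher and 1029 lower of 17184. The 4 lower members were PTTG1 at -0.46, CCNB1 at -0.26, CCNB2 at -0.22 and CDK1 at -0.22, and the 4 higher were CKS1B at 0.34, PRC1 at 0.30, BIRC5 at 0.29 and BUB1B at 0.25. BIRC5 and BUB1B were not called on TMM-scaled counts. With counts scaled for effective length the calls among the 46 were 0 higher and 2 lower, and 4 higher and 7 lower. Over all genes they were 398 higher and 343 lower of 17056, and 1333 higher and 1429 lower of 17236.

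**Figure D1:**
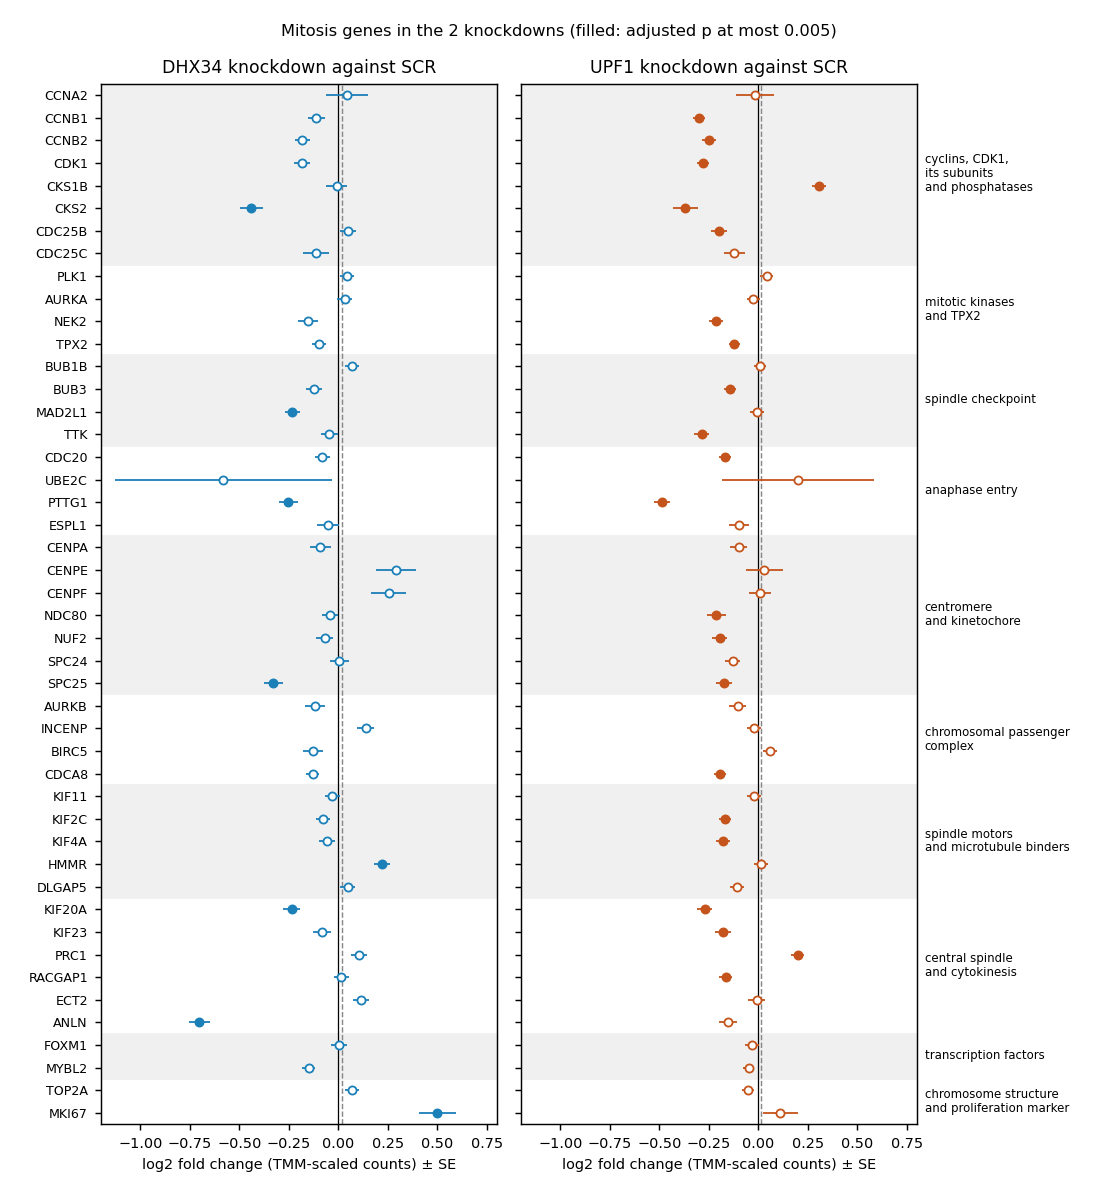
The log2 fold change on TMM-scaled counts (x axis, ± SE) is drawn for each of the 46 genes (y axis, by role) in the DHX34 and UPF1 knockdowns against SCR, with 3 libraries per group. Filled points passed an adjusted p of 0.005 and the dashed line marks the median of all genes tested. In the UPF1 panel 20 filled points lie below zero, 13 of which are above zero on uncentered TPM, while the DHX34 panel has 6 below and 2 above.

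Among the cyclins, CDK1, its subunits and its phosphatases, 1 of 8 genes fell in the DHX34 knockdown, and 1 rose and 5 fell in the UPF1 knockdown, where CDC25B was above 0 on uncentered TPM. CCNB1, the main mitotic cyclin (ENSG00000134057, chromosome 5, 69167135 to 69178245), was at 309.7, 297 and 311 CPM in the SCR libraries, 288, 292 and 269 in the DHX34 libraries and 251, 256 and 242 in the UPF1 libraries. All UPF1 libraries were below all DHX34 libraries, which were in turn below SCR. Its log2 fold change was -0.11 (SE 0.04, adjusted p 0.0796) in the DHX34 knockdown, which did not pass, and -0.30 (SE 0.03, adjusted p 9.86e-06) in the UPF1 knockdown. CDK1, the kinase that B-type cyclins activate, was at 250.1, 244 and 261 CPM in the SCR libraries, 228, 224 and 212 in the DHX34 libraries and 204, 211 and 209 in the UPF1 libraries. It fell in the UPF1 knockdown by 0.28 on the log2 scale (SE 0.03, adjusted p 1.33e-05), and its value of -0.18 (SE 0.04, adjusted p 0.00844) in the DHX34 knockdown missed the limit. CCNB2, the second B-type cyclin, was at 135, 130.2 and 140.4 CPM in the SCR libraries, 118, 121 and 118 in the DHX34 libraries and 111, 117 and 115 in the UPF1 libraries. Here too the 3 groups did not overlap, with log2 fold changes of -0.18 (SE 0.04, adjusted p 0.00541) and -0.25 (SE 0.03, adjusted p 9.43e-05) in the DHX34 and UPF1 knockdowns, of which the latter passed.

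The paralogs CKS1B and CKS2, small subunits that bind cyclin-dependent kinases, parted in the UPF1 knockdown. CKS1B (ENSG00000173207, chromosome 1, 154974653 to 154979251) was at 163, 152 and 166 CPM in the SCR libraries, 165, 165 and 148 in the DHX34 libraries and 196, 197 and 204 in the UPF1 libraries. All UPF1 libraries were above all others, while SCR and DHX34 libraries overlapped. Its log2 fold change was 0.31 (SE 0.03, adjusted p 2.34e-05) in the UPF1 knockdown and -0.01 (SE 0.05, adjusted p 0.936) in the DHX34 knockdown. CKS2 (ENSG00000123975, chromosome 9, 89311195 to 89316703) was at 75.9, 73.4 and 82.8 CPM in the SCR libraries, 59.7, 58.2 and 53.2 in the DHX34 libraries and 59.8, 54.6 and 66.1 in the UPF1 libraries. Both knockdowns lay below SCR and overlapped each other, with log2 fold changes of -0.44 (SE 0.06, adjusted p 0.000349) for DHX34 and -0.37 (SE 0.06, adjusted p 0.000543) for UPF1, of which the latter was not called with the trend on length removed. CDC25B, a phosphatase that activates CDK1, was at 58.3, 61.0 and 59.2 CPM in the SCR libraries, 61.1, 59.3 and 64.1 in the DHX34 libraries and 51.2, 54.0 and 50.9 in the UPF1 libraries. It fell in the UPF1 knockdown alone by the test, at -0.20 (SE 0.04, adjusted p 0.00129) against 0.05 (SE 0.04, adjusted p 0.444) in the DHX34 knockdown. CCNA2, which acts in S phase and early mitosis, and CDC25C did not pass in either, with log2 fold changes from -0.12 to 0.05.

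Among the mitotic kinases and TPX2, 0 of 4 were called in the DHX34 knockdown (2 had an unadjusted p under 0.05, and DESeq2 called 0), and NEK2 and TPX2 fell in the UPF1 knockdown, both turning positive on uncentered TPM. PLK1, the polo-like kinase, was at 233, 238 and 243 CPM in the SCR libraries, 243, 251 and 242 in the DHX34 libraries and 249, 253 and 236 in the UPF1 libraries. The groups overlapped, and its log2 fold changes of 0.04 and 0.04 did not pass. TPX2, the activator of Aurora A, was at 342, 353 and 358 CPM in the SCR libraries, 333, 327 and 324 in the DHX34 libraries and 323, 331 and 319 in the UPF1 libraries. Both knockdowns were below SCR, and the log2 fold change passed in the UPF1 knockdown at -0.12 (SE 0.03, adjusted p 0.00374) and not in the DHX34 knockdown at -0.10 (SE 0.04, adjusted p 0.0643). NEK2, a kinase of centrosome separation, was at 73.9, 73.1 and 77.1 CPM in the SCR libraries, 66.4, 72.0 and 62.9 in the DHX34 libraries and 66.3, 63.4 and 64.5 in the UPF1 libraries. Its log2 fold change passed in the UPF1 knockdown at -0.21 (SE 0.03, adjusted p 0.000397), beside -0.15 (SE 0.05, adjusted p 0.0538) in the DHX34 knockdown. AURKA, the Aurora A kinase itself, had log2 fold changes of 0.03 and -0.03 that did not pass.

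Of the 4 spindle checkpoint genes, MAD2L1 fell in the DHX34 knockdown, and TTK and BUB3 in the UPF1 knockdown, of which BUB3 was above 0 on uncentered TPM. MAD2L1, which encodes MAD2 (ENSG00000164109, chromosome 4, 120055623 to 120066858), was at 146, 146 and 155 CPM in the SCR libraries, 128, 126 and 126 in the DHX34 libraries and 146, 146 and 155 in the UPF1 libraries. The DHX34 libraries were below all others, and SCR and UPF1 libraries overlapped, with log2 fold changes of -0.23 (SE 0.04, adjusted p 0.000988) and -0.01 (SE 0.04, adjusted p 0.921). TTK, the MPS1 kinase that starts checkpoint signalling, was at 53.9, 52.5 and 52.2 CPM in the SCR libraries, 50.6, 53.0 and 49.9 in the DHX34 libraries and 42.7, 44.2 and 43.5 in the UPF1 libraries. Here the UPF1 libraries were below all others, with a log2 fold change of -0.05 (SE 0.04, adjusted p 0.487) with DHX34 siRNA and -0.29 (SE 0.04, adjusted p 5.83e-05) in the UPF1 knockdown. BUB3 was at 225, 209 and 217 CPM in the SCR libraries, 198, 206 and 194 in the DHX34 libraries and 197, 201 and 193 in the UPF1 libraries. It fell in the UPF1 knockdown at -0.14 (SE 0.03, adjusted p 0.00324), and the DHX34 value of -0.12 (SE 0.04, adjusted p 0.0503) did not pass. BUB1B, the BUBR1 component of the same inhibitory complex, had log2 fold changes of 0.07 and 0.01, neither past the limit.

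Of the 4 genes of anaphase entry, PTTG1 fell in both knockdowns. PTTG1 encodes securin, the inhibitor of separase (ENSG00000164611, chromosome 5, 160421855 to 160428739), and was at 107, 96.7 and 103 CPM in the SCR libraries, 85.5, 88.7 and 82.2 in the DHX34 libraries and 74.6, 71.4 and 73.2 in the UPF1 libraries. The 3 groups formed 3 separate levels, with log2 fold changes of -0.25 (SE 0.05, adjusted p 0.00286) with DHX34 siRNA, which was lost with the trend on length removed, and -0.49 (SE 0.04, adjusted p 1.88e-06) in the UPF1 knockdown. The near-identical copies PTTG2 and PTTG3P, with KIF4B, CKS1BP7 and the BUB1B-PAK6 readthrough, summed to at most 0.07 TPM in any library. CDC20, the activator of the anaphase-promoting complex, was at 258, 243 and 252 CPM in the SCR libraries, 235, 244 and 232 in the DHX34 libraries and 221, 231 and 220.3 in the UPF1 libraries. It fell in the UPF1 knockdown at -0.17 (SE 0.03, adjusted p 0.00103), with a positive value on uncentered TPM, while in the DHX34 knockdown, at -0.08 (SE 0.04, adjusted p 0.159), the libraries overlapped with SCR. Separase itself, ESPL1, had log2 fold changes of -0.05 and -0.10 that did not pass.

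Among 7 centromere and kinetochore genes 1 fell in the DHX34 knockdown and 3 fell in the UPF1 knockdown, all of them subunits of the NDC80 complex, which grips the microtubule end; in the UPF1 knockdown SPC25 and NUF2 turned positive on uncentered TPM. SPC25 was at 73.8, 70.7 and 77.9 CPM in the SCR libraries, 61.0, 59.4 and 56.5 in the DHX34 libraries and 65.7, 64.8 and 67.4 in the UPF1 libraries. Its DHX34 libraries were the lowest and its UPF1 libraries lay between these and SCR, with log2 fold changes of -0.33 (SE 0.05, adjusted p 0.000711) and -0.17 (SE 0.04, adjusted p 0.00335), of which the UPF1 call was lost with the trend on length removed. NDC80 was at 61.3, 60.9 and 65.2 CPM in the SCR libraries, 60.1, 61.6 and 60.2 in the DHX34 libraries and 57.4, 54.9 and 50.3 in the UPF1 libraries. It fell in the UPF1 knockdown at -0.21 (SE 0.05, adjusted p 0.00387), and in the DHX34 knockdown, at -0.04 (SE 0.04, adjusted p 0.508), the groups overlapped. NUF2 fell in the UPF1 knockdown as well, by 0.20 on the log2 scale (adjusted p 0.00122), and SPC24, the partner of SPC25, was at -0.13 (SE 0.04, adjusted p 0.0191) there and did not pass. CENPA, the centromeric histone, was at 42.9, 41.1 and 42.6 CPM in the SCR libraries, 41.4, 40.3 and 36.9 in the DHX34 libraries and 40.8, 40.2 and 37.7 in the UPF1 libraries. Its log2 fold changes were -0.09 and -0.10, and neither passed. The long genes CENPE and CENPF had log2 fold changes of 0.29 and 0.25 in the DHX34 knockdown, where replicate 3 was the highest library for both, and they did not pass (adjusted p 0.0518 and 0.0541).

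The chromosomal passenger complex corrects faulty attachments and steers cytokinesis, and 1 of its 4 genes was called. CDCA8, which encodes borealin, fell in the UPF1 knockdown at -0.19 (SE 0.03, adjusted p 0.000268), with a positive value on uncentered TPM, and was at -0.13 (SE 0.03, adjusted p 0.0165) in the DHX34 knockdown. BIRC5, or survivin, was at 270.0, 252 and 266 CPM in the SCR libraries, 246, 251 and 223 in the DHX34 libraries and 277, 284 and 263 in the UPF1 libraries. Its UPF1 libraries overlapped with SCR and lay above the DHX34 libraries, with log2 fold changes of -0.13 and 0.06 that did not pass. AURKB, the kinase of the complex, was at 76.4, 67.7 and 70.9 CPM in the SCR libraries, 66.9, 67.4 and 63.4 in the DHX34 libraries and 65.6, 67.6 and 67.3 in the UPF1 libraries. Both knockdowns were below SCR and did not pass, at -0.12 (SE 0.05, adjusted p 0.116) and -0.10 (SE 0.04, adjusted p 0.0756). INCENP was at 0.14 (SE 0.04, adjusted p 0.0392) with DHX34 siRNA and -0.02 (SE 0.04, adjusted p 0.678) in the UPF1 knockdown.

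Of the 5 spindle motors and microtubule binders 1 rose in the DHX34 knockdown and 2 fell in the UPF1 knockdown, both of them positive on uncentered TPM. HMMR was at 105, 98.5 and 99.2 CPM in the SCR libraries, 117, 120.1 and 115 in the DHX34 libraries and 103, 103 and 100.003 in the UPF1 libraries. The DHX34 libraries were above all others, and its log2 fold change was 0.22 (SE 0.04, adjusted p 0.00286) there and 0.01 (SE 0.03, adjusted p 0.806) in the UPF1 knockdown. KIF2C, a microtubule depolymerase, was at 275, 274 and 282 CPM in the SCR libraries, 261, 267 and 258 in the DHX34 libraries and 251, 255 and 238 in the UPF1 libraries. It fell in the UPF1 knockdown at -0.17 (SE 0.03, adjusted p 0.000832), as did the chromokinesin KIF4A at -0.18 (SE 0.04, adjusted p 0.00151). KIF11, the motor that makes the spindle bipolar, was at -0.03 and -0.02 in the DHX34 and UPF1 knockdowns and DLGAP5 at 0.05 and -0.11, and none of these passed.

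The 6 genes of the central spindle and cytokinesis held the largest single change. ANLN (ENSG00000011426, chromosome 7, 36389821 to 36453791) was at 66.9, 72.1 and 77.3 CPM in the SCR libraries, 43.02, 43.3 and 46.4 in the DHX34 libraries and 66.1, 64.7 and 64.5 in the UPF1 libraries. The DHX34 libraries were far below all others, with a log2 fold change of -0.70 (SE 0.05, adjusted p 1.24e-05), while the UPF1 value of -0.15 (SE 0.05, adjusted p 0.0185) missed the limit by edgeR and passed by DESeq2. KIF20A, a kinesin of the midzone, was at 68.1, 72.6 and 73.1 CPM in the SCR libraries, 62.5, 59.2 and 59.6 in the DHX34 libraries and 59.0, 59.3 and 59.5 in the UPF1 libraries. It fell in both knockdowns, at -0.24 (SE 0.04, adjusted p 0.00278) and -0.27 (SE 0.04, adjusted p 9.14e-05), the latter turning positive on uncentered TPM. PRC1, which bundles antiparallel microtubules, was at 110.1, 116 and 117 CPM in the SCR libraries, 121, 120.5 and 128 in the DHX34 libraries and 130.1, 132 and 135 in the UPF1 libraries. It rose in the UPF1 knockdown at 0.20 (SE 0.03, adjusted p 0.000418) and was at 0.10 (SE 0.04, adjusted p 0.0718) in the DHX34 knockdown. RACGAP1, which forms centralspindlin with KIF23, was at 97.8, 98.1 and 103 CPM in the SCR libraries, 104, 99.0 and 98.4 in the DHX34 libraries and 87.3, 92.1 and 88.3 in the UPF1 libraries. Both centralspindlin genes fell in the UPF1 knockdown on TMM-scaled counts, RACGAP1 at -0.16 (SE 0.03, adjusted p 0.00194) and KIF23 at -0.18 (SE 0.04, adjusted p 0.00420), and turned positive on uncentered TPM. In the DHX34 knockdown they were at 0.02 and -0.08 without passing. ECT2, the exchange factor that activates RhoA at the midzone, was at 0.11 and -0.01 and did not pass.

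The transcription factors that drive the program were not called on TMM-scaled counts by edgeR in either knockdown, and MYBL2 was called in the DHX34 knockdown by DESeq2 at -0.16 and by edgeR at -0.20 with the trend on length removed. MYBL2, or B-MYB, was at 296, 297 and 302 CPM in the SCR libraries, 272, 265 and 269 in the DHX34 libraries and 287, 299 and 283 in the UPF1 libraries. The DHX34 libraries were below the others, at -0.15 (SE 0.03, adjusted p 0.00704), which missed the limit, and the UPF1 value was -0.05 (SE 0.03, adjusted p 0.202). FOXM1 was at 61.3, 64.2 and 63.7 CPM in the SCR libraries, 61.3, 61.9 and 66.3 in the DHX34 libraries and 62.6, 63.0 and 60.1 in the UPF1 libraries. Its groups overlapped, with log2 fold changes of 0.00 and -0.03. Of the last 2 genes, TOP2A, the topoisomerase that untangles chromosomes, was at 486, 510.0 and 512 CPM in the SCR libraries, 531, 518 and 531 in the DHX34 libraries and 473, 498 and 488 in the UPF1 libraries. It did not pass in either knockdown, at 0.07 and -0.05. MKI67 (ENSG00000148773, chromosome 10, 128096659 to 128126423) was at 105, 109 and 91.2 CPM in the SCR libraries, 128, 134 and 169 in the DHX34 libraries and 119, 119 and 92.8 in the UPF1 libraries. The DHX34 libraries were above SCR and replicate 3 was far above the other 2, with a log2 fold change of 0.50 (SE 0.09, adjusted p 0.00298) there and 0.11 (SE 0.09, adjusted p 0.358) in the UPF1 knockdown. Without DHX34 knockdown replicate 3 its log2 fold change was 0.38 and still passed, while the call was lost without SCR replicate 1 (0.52, adjusted p 0.0164), SCR replicate 2 (0.55, adjusted p 0.00798) or SCR replicate 3 (0.43, adjusted p 0.0202).

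**Figure D2:**
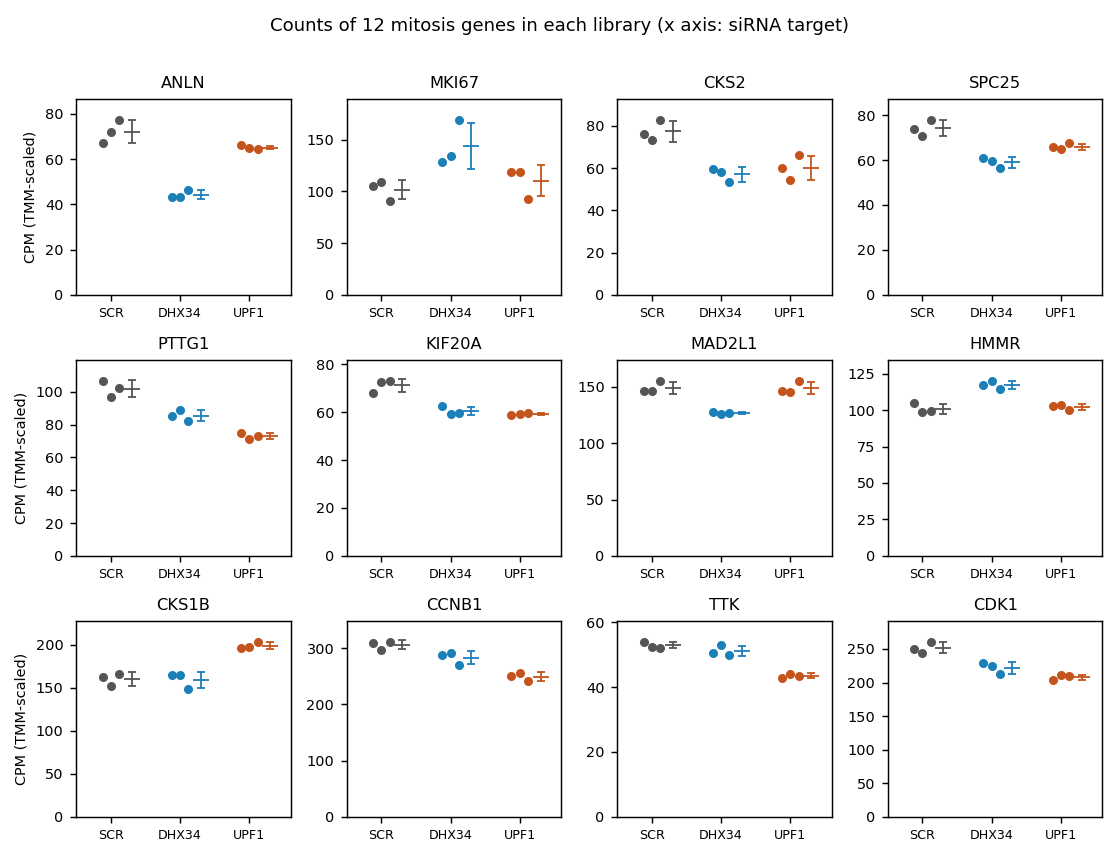
TMM-scaled CPM (y axis, from 0) of 12 genes is shown in each of the 9 libraries, grouped on the x axis by siRNA target. Points are libraries and the bar beside them is the mean ± SD of 3. ANLN is lowest in the DHX34 libraries at 43.02 to 46.4 CPM, PTTG1 forms 3 levels, and CKS1B is highest in the UPF1 libraries at 196 to 204 CPM.

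Both comparisons used the same SCR libraries, so the knockdowns were also compared with each other directly. Of the 46 genes 3 were higher in the UPF1 knockdown and 4 lower, which is 6.52% against 9.89% of the 17435 genes tested and 8.70% against 7.47%. ANLN was higher in the UPF1 knockdown by 0.57 (SE 0.04, adjusted p 1.75e-06), CKS1B by 0.33 (SE 0.04, adjusted p 0.000162) and MAD2L1 by 0.24 (SE 0.03, adjusted p 0.000288) on the log2 scale. CDC25B was lower at -0.23 (SE 0.04, adjusted p 0.00157), TTK at -0.22 (SE 0.04, adjusted p 0.00118), PTTG1 at -0.22 (SE 0.04, adjusted p 0.00137) and HMMR at -0.19 (SE 0.03, adjusted p 0.00114). In 27 of the 46 genes, or 58.7%, the groups did not overlap, as in 45.9% of all genes, and the median was -0.05 against 0.01. The calls on ANLN, CKS1B and MAD2L1 held with any 1 library left out, and the other 4 genes lost theirs in 3 to 5 of the 6 fits, with adjusted p of at most 0.0121. Without UPF1 knockdown replicate 1 or replicate 3 the 7 calls came down to 3, without UPF1 knockdown replicate 2 or DHX34 knockdown replicate 1 or replicate 2 to 4, and without DHX34 knockdown replicate 3 to 7. The split depended on the scale, and with length-scaled counts 4 were higher and 0 lower, and on log2(TPM + 0.5) 5 were higher and 1 lower, or 4 and 0 after centering on the median ratio. By their separate tests against SCR, CKS2, PTTG1, SPC25 and KIF20A fell in both knockdowns. Another 4 genes were called in the DHX34 knockdown, 18 in the UPF1 knockdown, and 20 in neither. The share of all genes called in both was not computed, so these counts cannot be set against it. With the trend on length removed, only KIF20A of the 4 shared genes was still called in both knockdowns.

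Length moved with the result. The log2 fold change of the 46 genes followed their effective length in the DHX34 knockdown, with Spearman's rho of 0.524 over the 46 genes and 0.238 over all genes tested. In the UPF1 knockdown these were 0.255 and 0.155. The points share libraries and are not independent. Short genes such as CKS2, of 324 bases, were low and the longest, MKI67 of 11247 bases, was high, and ANLN, of 3764 bases, was the lowest. The deviation of single libraries from the mean followed length at -0.30, -0.13 and -0.16 in SCR, at 0.10, 0.08 and 0.23 in the DHX34 knockdown and between 0.06 and 0.09 in the UPF1 knockdown. With the trend on length removed, 1 of the 46 genes was higher and 8 were lower in the DHX34 knockdown, and the called genes changed. MKI67 at 0.29 (adjusted p 0.0125) and PTTG1 at -0.14 (adjusted p 0.0173) were no longer called, and CDCA8 at -0.17, MYBL2 at -0.20 and TPX2 at -0.17 were. The UPF1 comparison again gave 2 higher and 20 lower, but CKS2 at -0.25 (adjusted p 0.0124) and SPC25 at -0.13 (adjusted p 0.0193) were no longer called, and ANLN at -0.23 and TOP2A at -0.16 were. Whether length itself or something that goes with it played a part in the rest was not tested.

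**Figure D3:**
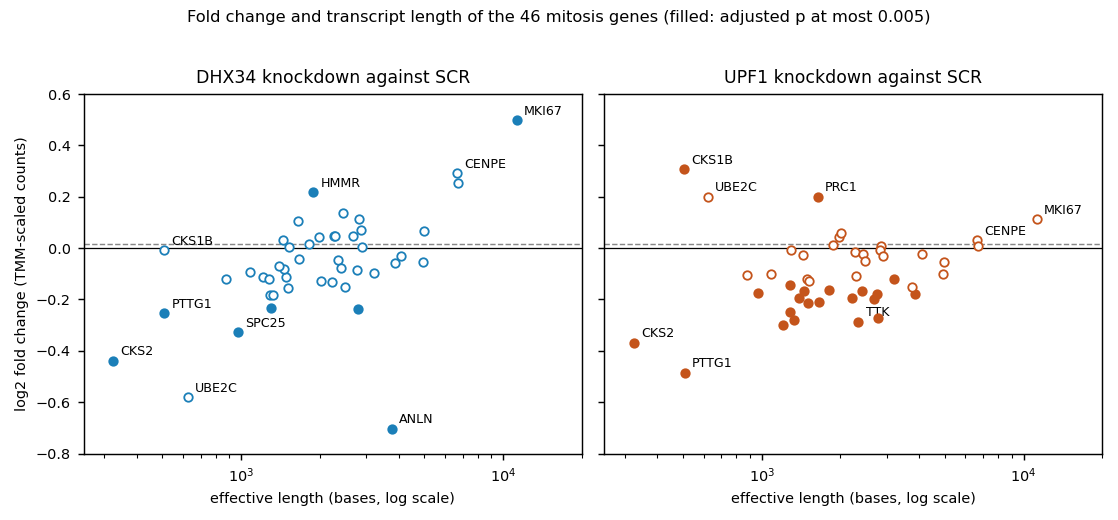
The log2 fold change (y axis, TMM-scaled counts) is plotted against the effective length in bases (x axis, log scale) for the 46 genes in the DHX34 and UPF1 knockdowns; filled points passed an adjusted p of 0.005 and the dashed line is the median of all genes tested. In the DHX34 panel CKS2 lies at -0.44 and MKI67 at 0.50, with ANLN lowest at -0.70 and the barely detected UBE2C, not called, at -0.58, and in the UPF1 panel CKS1B and PTTG1, of like length, lie at 0.31 and -0.49.

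Isoforms were examined because UPF1 removes transcripts with premature stop codons. The 46 genes had 355 annotated transcripts in the files. In the DHX34 knockdown 0 of 216 tested were called by edgeR, which called 0.0463% of all transcripts. An unadjusted p under 0.05 was reached by 39 of the 216, or 18.1% against 15.2% of all, and DESeq2 called 12 of the 176 it gave an adjusted p, or 6.82% against 5.78%. The count of 0 does not show that isoforms were stable, as few transcripts of any gene were called. In the UPF1 knockdown 6 of 217 fell and 0 rose, against 2.59% of all transcripts called in either direction. The 6 were protein-coding transcripts, 2 of CCNB1 and 1 each of PTTG1, TTK, KIF20A and CDK1, with log2 fold changes of -0.31 (CCNB1-204) to -0.56 (PTTG1-201), and with any 1 library left out at most 2 stayed called.

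For 15 of the 46 genes the TPM of transcripts annotated as NMD targets could be set against that of the protein-coding ones, as the log2 of their ratio with 0.1 TPM added to each. In the UPF1 knockdown the ratio rose in 4 of these, BUB1B, KIF20A, KIF23 and BIRC5, and fell in 0, at a limma adjusted p of at most 0.05, and it was called in either direction in 14.7% of the 3830 genes tested. In the DHX34 knockdown 0 were called, and 0 had an unadjusted p under 0.05, where 0.209% of genes were called. BIRC5 carried the most of such RNA after MAD2L1, at 10.4, 17.3 and 12.1 TPM in the SCR libraries, 15.3, 15.7 and 19.8 in the DHX34 libraries and 43.3, 39.1 and 33.3 in the UPF1 libraries. Nearly all of it was the transcript BIRC5-208 (42.4, 38.5 and 33.1 TPM in the UPF1 knockdown), and the UPF1 libraries lay well above the others, with a change in log2 ratio of 1.32 (SE 0.26, adjusted p 0.0274). KIF20A had 0.225, 0.898 and 0.495 TPM in the SCR libraries, 0.400, 0.535 and 0.320 in the DHX34 libraries and 1.76, 1.79 and 2.76 in the UPF1 libraries. The UPF1 libraries were again above all others and the change in log2 ratio was 1.98 (SE 0.42, adjusted p 0.0351). BUB1B had 0.189, 0.119 and 0 TPM in the SCR libraries, 0.429, 0.358 and 0.0911 in the DHX34 libraries and 1.07, 0.688 and 1.36 in the UPF1 libraries, and its log2 ratio changed by 2.39 (SE 0.47, adjusted p 0.0275). KIF23 had 0.208, 0.246 and 0.408 TPM in the SCR libraries, 0.0639, 0.658 and 0.837 in the DHX34 libraries and 1.15, 0.615 and 1.07 in the UPF1 libraries. Its DHX34 libraries spanned the gap between the other groups, and the change in log2 ratio was 1.45 (SE 0.33, adjusted p 0.0410) in the UPF1 knockdown. With so little NMD-annotated RNA in SCR, the size of the change in KIF20A, BUB1B and KIF23 depended on the amount added. With 1 TPM added instead of 0.1 it was 1.09 for KIF20A, 0.69 for BUB1B and 0.61 for KIF23. For BIRC5 no alternative gave less than 1.15. NMD-annotated RNA was between 1.56% and 10.7% of the TPM of BUB1B, KIF20A and KIF23 in the UPF1 knockdown, whereas its share of BIRC5 was 8.72% to 14.2% in SCR and 21.5% to 25.1% in the UPF1 knockdown. With any 1 library left out 0 to 2 of the 4 stayed called, with 0 without UPF1 knockdown replicate 1 or replicate 3, 1 without replicate 2, 1 without SCR replicate 1 or replicate 3 and 2 without SCR replicate 2, and each kept a positive change.

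**Figure D4:**
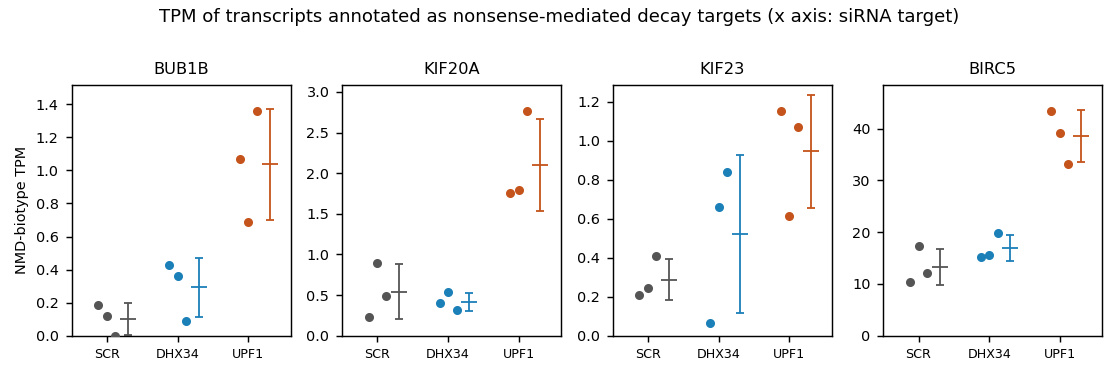
Summed TPM of transcripts annotated as NMD targets (y axis, from 0, a scale of its own per gene) is shown for BUB1B, KIF20A, KIF23 and BIRC5 in each library, by siRNA target; points are libraries and the bar is the mean ± SD of 3. The UPF1 libraries lie at 33.3 to 43.3 TPM for BIRC5, above 10.4 to 17.3 in SCR, and below 3 TPM for the other genes.

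MAD2L1 differed from these. Most of its RNA was assigned to transcripts that carry the NMD annotation, at 87.9, 90.9 and 91.8 TPM in the SCR libraries, 78.8, 81.1 and 83.6 in the DHX34 libraries and 99.8, 101 and 107 in the UPF1 libraries, and the change in log2 ratio in the UPF1 knockdown was -0.02 (SE 0.16, adjusted p 0.952). The main one of these (ENST00000333047) alone held 82.4, 86.5 and 88.0 TPM in SCR and 96.5, 96.5 and 102 in the UPF1 knockdown, while its log2 fold change on TMM-scaled counts was -0.06 and did not pass. The ratios of PLK1, at 1.61 (SE 0.64, adjusted p 0.154), and RACGAP1, at 1.90 (SE 0.57, adjusted p 0.0806), did not pass in the UPF1 knockdown. Transcripts with a retained intron were treated the same way in 24 of the 46 genes, and 0 were called in either knockdown, with 1 and 3 at an unadjusted p under 0.05 in the DHX34 and UPF1 knockdowns, where limma called 0.249% and 0.0959% of all genes.

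Beyond the 46 genes, a further list of 98 mitosis genes, of which 97 were tested, held 7 that rose and 6 that fell in the DHX34 knockdown, and its median log2 fold change was -0.02. These were 7.22% and 6.19%, near the 5.54% and 4.86% of all genes. With the trend on length removed 4 were higher and 7 lower, with length-scaled counts 2 and 1, and on uncentered TPM 7 and 0. On TMM-scaled counts CIT, the citron kinase of cytokinesis, rose by 0.34, MASTL, the Greatwall kinase, by 0.31 and FAM83D by 0.30. ANAPC11, CENPW and ANAPC15 fell by 0.36, 0.31 and 0.31. In the UPF1 knockdown 8 rose and 25 fell, with a median of -0.08, and on uncentered TPM the split turned to 23 and 2, or to 6 and 11 after centering on the median ratio. On TMM-scaled counts 8.25% rose and 25.8% fell, against 12.4% and 12.9% of all genes. KIF15, a spindle kinesin, rose by 0.53, CENPM by 0.33 and ANAPC1 by 0.30, and FAM83D, ANAPC11 and PBK fell by 0.56, 0.40 and 0.37. Set directly against the DHX34 knockdown, 7 were higher and 13 lower in the UPF1 knockdown, or 7.22% and 13.4% against 9.89% and 7.47% of all genes.

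Among 19 genes of the MuvB complex, its partners and the pocket proteins, E2F2 and E2F7 rose in the DHX34 knockdown by 0.30 and 0.33 on TMM-scaled counts. That is 10.5% against 5.54% of all genes. With the trend on length removed 0 of the 19 were called higher and 1 lower. With length-scaled counts, and on log2(TPM + 0.5), 0 were called. In the UPF1 knockdown E2F7, a repressor of cell cycle genes, rose by 0.47, the pocket protein gene RBL1 by 0.24, E2F2 by 0.23 and TFDP2 by 0.16, and LIN9, a core MuvB subunit, fell by 0.17, E2F4 by 0.14 and RBBP4 by 0.14. On the same counts 21.1% of the list rose and 15.8% fell there, against 12.4% and 12.9% of all genes. CDKN1A, which encodes the CDK inhibitor p21, was the only 1 of 6 inhibitors tested that was called, and it rose by 0.75 in the DHX34 knockdown and by 0.70 in the UPF1 knockdown. On TMM-scaled counts 6 of 16 erythroid markers fell in the DHX34 knockdown, or 37.5% against 4.86% of all genes. In the UPF1 knockdown 12 fell and 1 rose, or 75% and 6.25% against 12.9% and 12.4%. On log2(TPM + 0.5) 3 of the 16 were higher and 3 lower in the DHX34 knockdown. The part of these markers, of the inhibitors and of the MuvB list in the levels of the mitosis genes was not tested. Of 7 megakaryocytic markers tested, THBS1, ITGA2B, ITGB3 and MEIS1 rose in the DHX34 knockdown and GP1BB fell. These were 57.1% and 14.3%, against 5.54% and 4.86% of all genes. The summed level of the 15 markers was 135 to 146 TPM in SCR, 119 to 129 in the DHX34 knockdown and 128 to 144 in the UPF1 knockdown. Other markers that were called were COL1A1, higher in the DHX34 knockdown, and SFN, EPCAM, CD3G and CD3D, lower in the UPF1 knockdown.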

How the data were processed

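The deposited files held, per library and transcript, estimated counts and TPM values, which the authors obtained with salmon 1.5.2 against Ensembl GRCh38 release 93, with correction for GC bias, and the transcript and effective lengths. Further deposited tables held only the authors' own fold changes, p-values and splicing differences and were not used. Transcripts were joined to genes, biotypes and coordinates with GENCODE 44 on GRCh38, which matched 97.9% of 203027 transcripts and at least 98.1% of the counts. The estimated counts were summed per gene and rounded to whole numbers.

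Groups were compared in pairs of 3 libraries, over all genes passing a filter on low counts (minimum count 10), with edgeR 4.0.16 (quasi-likelihood test, TMM scaling, Benjamini-Hochberg adjustment over all genes tested, adjusted p of at most 0.005, the limit of the study) in R 4.3.3. Transcripts were tested the same way. NMD and retained-intron ratios were tested with limma 3.58.1 on TPM with a pseudocount of 0.1, at an adjusted p of at most 0.05, for genes whose mean reached 1 TPM. Fold changes on TPM are on the log2(value + pseudocount) scale. The tests were tried on simulated data. The alternatives were DESeq2 1.42.0, other scalings, filters, pseudocounts, a length correction, a replicate block and leaving out each library; the centered TPM fits were added after seeing the data.

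The 46 genes, the other lists and the tests were chosen with earlier results of these data known. Values in every library are given for called genes with separated groups and the largest changes, and for the main genes of each role. The precision of the values was read from the spread between 3 libraries per group, and the effect of depth was not tested.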

Additional observations from a re-analysis of the deposited data

Results flagged for a closer look

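For 7 of the 46 genes the knockdowns differed from each other in the direct edgeR comparison, by log2 fold changes of UPF1 over DHX34 knockdown of 0.57 for ANLN, 0.33 for CKS1B, 0.24 for MAD2L1, -0.23 for CDC25B, -0.22 for TTK, -0.22 for PTTG1 and -0.19 for HMMR. The 7 calls were 6.52% higher and 8.70% lower, beside 9.89% and 7.47% of the 17435 genes tested. In each of the 7 the 3 libraries of one knockdown lay on one side of the 3 of the other. These genes were picked as different in the same libraries, so their separation is not independent support. Of all genes tested, called or not, 45.9% had groups that did not overlap. Only the calls on ANLN, CKS1B and MAD2L1 held with any 1 library left out. The spread within groups of 3 libraries was examined only by leaving out each library in turn.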

How the results depend on the processing

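The counts of called genes moved with the setting, here in the order DHX34 knockdown against SCR, UPF1 knockdown against SCR and the direct comparison, from 8, 22 and 7 of the 46 genes and 13, 33 and 20 of the other mitosis genes. Length-scaled counts gave 2, 11 and 4, and 3, 20 and 8. On log2(TPM + 0.5), limma gave 3 and 10 of the 46 genes against SCR, and 7 and 6 of the others in the DHX34 and direct comparisons; with a pseudocount of 1 these were 2 and 10, and 6 and 6. Centered on the median ratio, TPM gave 1, 8 and 4, and 4, 17 and 7. Centered on the median level of each library, which left the median gene 0.11 and 0.12 below 0 against SCR, it gave 4, 16 and 2, and 6, 20 and 7. DESeq2 gave 14 of the 46 genes in the direct comparison, 22 of the others in the DHX34 knockdown, and 12 and 40 transcripts in the DHX34 and UPF1 knockdowns against 0 and 6. Without the filter 13 and 16 of the 46 genes were called in the DHX34 and direct comparisons. An adjusted p of 0.05 gave 13 and 21 of the 46 genes there, 29, 53 and 43 of the others, and 9 and 28 transcripts. NMD ratios went from 4 to 2 with at least 1 TPM of NMD-annotated RNA. With 1 library left out the 46 genes gave 3 to 8, 12 to 20 and 3 to 13 calls, the others 4 to 13, 22 to 30 and 10 to 25, transcripts 0 in the DHX34 knockdown and 0 to 2 in the UPF1 knockdown, and NMD ratios 0 and 0 to 2.

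The replicate numbers did not pair the libraries (correlations of same-numbered deviations from -0.18 to 0.09), and with them as a replicate block the DHX34 knockdown had 3 of the 46 genes and 6 of the others called, and the UPF1 knockdown 0 transcripts and 0 NMD ratios.

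On uncentered TPM 13 genes called lower in the UPF1 knockdown turned positive, with pseudocounts of 0.5 and 1. They were CDC25B at 0.049 and 0.048, NEK2 at 0.0091 and 0.0090, TPX2 at 0.082 and 0.082, BUB3 at 0.080 and 0.080, CDC20 at 0.058 and 0.058, NUF2 at 0.030 and 0.030, SPC25 at 0.054 and 0.054, CDCA8 at 0.012 and 0.012, KIF2C at 0.072 and 0.072, KIF4A at 0.037 and 0.036, KIF20A at 0.027 and 0.026, KIF23 at 0.059 and 0.057, and RACGAP1 at 0.156 and 0.155. On that scale the median gene was itself at 0.17, and all 20 genes called lower were below it. These genes were picked as low in the same libraries, so this is not independent support. Relative to the median gene each of the 20 falls was also smaller on TPM than on counts. For RACGAP1 it was -0.011 on TPM against -0.180 on counts, and for KIF20A -0.140 against -0.287. With TPM centered on the median ratio 4 of the 20 stayed called lower. Why the falls were smaller on TPM was not tested. Depth limits the low transcripts, where few reads decide a ratio.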

Other observations

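Genes of DNA replication and S phase, a list of 50 of which all were tested, moved by small amounts. In the DHX34 knockdown CLSPN, which encodes claspin of the replication checkpoint, rose by 0.27 on the log2 scale. GINS3, CHAF1B and TYMS fell by 0.22, 0.21 and 0.19 there, all on TMM-scaled counts. Removing the trend on length again gave 1 higher and 3 lower, while length-scaled counts and uncentered TPM each gave 1 higher and 0 lower. In the UPF1 knockdown ORC6, of the origin recognition complex, and POLE, the catalytic subunit of polymerase epsilon, rose by 0.28 and 0.25, and 10 genes fell, among them TIPIN by 0.32, the sliding clamp gene PCNA by 0.29 and POLE2 by 0.24, on TMM-scaled counts, whereas uncentered TPM gave 17 higher and 0 lower and TPM centered on the median ratio 1 higher and 3 lower. The list's median was -0.04 with DHX34 siRNA and -0.06 with UPF1 siRNA, beside 0.02 over all genes in both. In the direct comparison 6 were higher in the UPF1 knockdown and 2 lower, led by ORC6 at 0.43 and FEN1 at -0.24. The shares higher and lower were 2% and 6% with DHX34 siRNA, against 5.54% and 4.86% of all genes. With UPF1 siRNA they were 4% and 20% against 12.4% and 12.9%, and in the direct comparison 12% and 4% against 9.89% and 7.47%.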
